A study of Homo sapiens with 6 samples.

Results

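The hypoxia response and glycolysis genes described here are 39 named genes: 4 regulators of the hypoxia-inducible factors (HIF), 14 genes that HIF induces, 3 transporters of glucose or lactate, 15 glycolytic enzymes and 3 genes that control glycolysis. They were taken by gene symbol, and 36 of the 39 had a probe set that the platform annotation pairs with that symbol alone, out of 18377 genes so read. Each of the 36 had exactly 1 such probe set. CA9 and SLC16A3 were not analysed here, and PGAM1 was read only by probe sets that it shares with PGAM4. The series measured total RNA from 6 cultures of MDA-MB231, a human breast carcinoma line of mesenchymal, triple-negative type, on 1-colour Affymetrix Human Gene arrays. In 3 cultures (GHSROS) the pTargeT expression vector carried GHSROS, a long noncoding RNA read from the strand opposite to the ghrelin receptor gene GHSR, and in 3 (empty vector) the same vector was empty. All 6 were grown in serum-containing medium in a humidified incubator with air and added CO2, and the labels name no treatment that lowers oxygen. The sources used here do not give whether the transfected cells were pools or clones, nor how strongly GHSROS was expressed. The values are log2 expression per probe set, so a difference of 1 is a 2-fold difference. A level can be compared between arrays for 1 gene but not between genes. Where genes are placed above or below a median level, this sorts probe-set signals coarsely and does not rank amounts of RNA.

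HIF is a transcription factor of an alpha subunit, encoded by HIF1A or EPAS1 (HIF-2 alpha), and a beta subunit encoded by ARNT. When oxygen is sufficient, prolyl hydroxylases such as those of EGLN1 and EGLN3 mark the alpha subunit, the VHL protein binds it and the proteasome removes it. When oxygen is short the alpha subunit persists and switches on genes for blood vessel growth, mitophagy, pH control, collagen hydroxylation, glucose uptake and glycolysis. Tumour cells commonly run glycolysis at a high rate in the presence of oxygen too, and the same enzyme genes then also answer to other factors such as MYC.

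Between the vectors, none of the 36 genes passed the test of a difference. In limma (lmFit and eBayes across all 18377 genes, two-sided, Benjamini-Hochberg adjustment) 0 of 36 passed an adjusted p of 0.05, every adjusted p was 1, and 0 had an unadjusted p under 0.05. The same test called 0% of all genes after adjustment, while 1.77% of all genes had an unadjusted p under 0.05. The members' log2 fold changes, GHSROS minus empty vector, ran from -0.28 for ANGPTL4 to 0.31 for VEGFA with a median of 0.02, beside a median of 0.0019 over all genes. Means were higher with GHSROS for 24 of 36 genes and lower for 12, where 50.9% of all genes had the higher mean with GHSROS. With each array centred on its median the split was 20 higher and 16 lower, where 45.8% of all genes were higher. Quantile normalization gave 25 higher and 11 lower, beside 53.7% of all genes. EPAS1, VEGFA, ANGPTL4, ALDOC, NDRG1 and SLC2A3 varied over the 6 cultures by more than 2-fold, whereas HIF1A had a range of 0.17 on the log2 scale and the 14 glycolytic enzymes a median range of 0.24. The submitters call the 3 cultures of a group biological replicates; separate transfections are not stated, and the tests can speak only of the spread among these 6 samples.

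**Figure D1:**
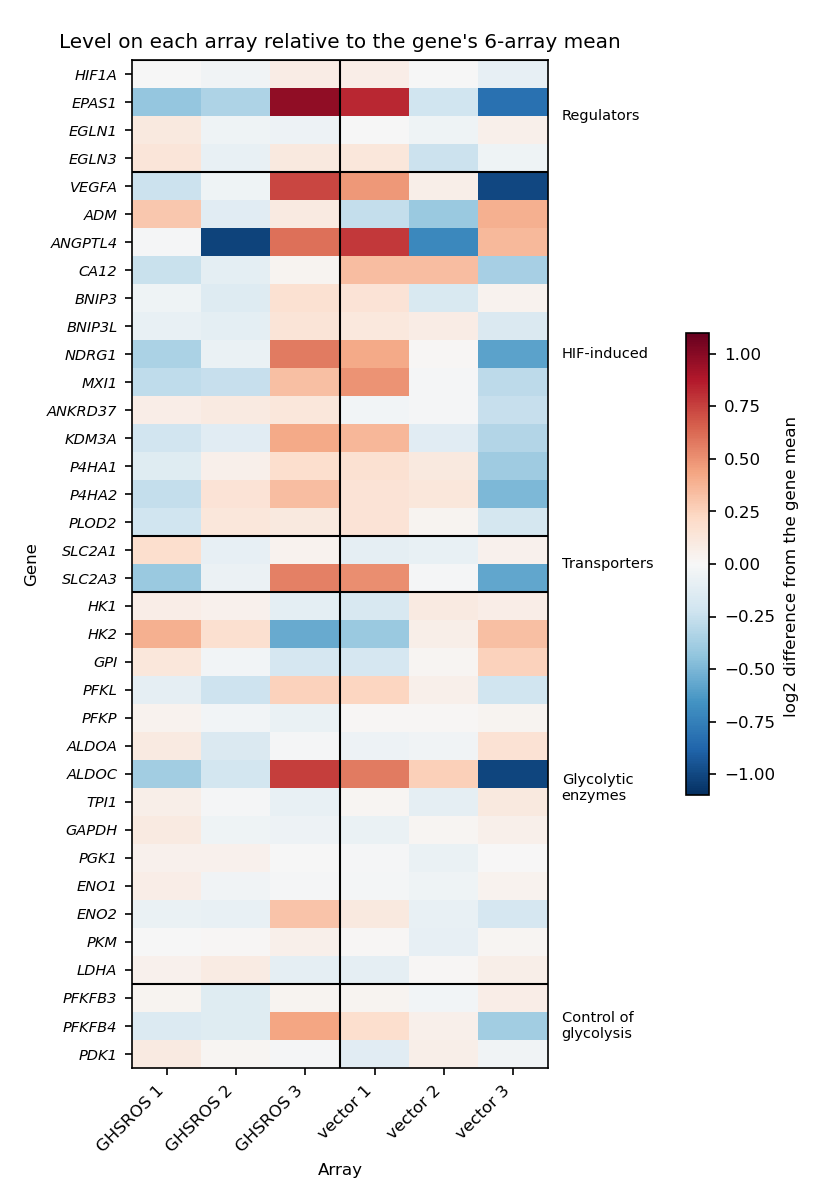
Each row is 1 of the 36 measured genes and each column 1 array, with the 3 GHSROS arrays left of the 3 empty-vector arrays. Colour gives the log2 difference from that gene's mean over the 6 arrays. GHSROS array 3 and empty-vector array 1 are red in most HIF-induced rows, empty-vector array 3 is blue there, and most rows of glycolytic enzymes are nearly white.

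The arrays themselves differed in ways that cut across the vector labels, and this touches every value below. Over all probe sets GHSROS array 3 correlated best with empty-vector array 1 (r = 0.9972 across probe sets, which are not independent), GHSROS array 1 with empty-vector array 3 and GHSROS array 2 with empty-vector array 2 (both 0.997). On GHSROS array 3 and empty-vector array 1 a list of 20 mitosis genes had its lowest means, at 10.22 and 10.20 against 11.03 to 11.23 on the other 4 arrays, and all 20 genes had their 2 lowest values there. A list of 20 genes, called ATF4 targets below, held ATF4 itself and genes listed as its targets. ATF4 switches on amino acid synthesis and transport under stress. This list had its highest means on the same arrays, at 9.91 and 9.88 against 8.75 to 9.19, and 15 of the 20 had their 2 highest values there. NUPR1 varied most of them, from 6.61 to 10.93, whereas SLC7A11, ATF3 and STC2 ranged over 0.16, 0.21 and 0.45. Of a list of 10 mesenchymal genes 9 had a mean at or above the median gene level of 7.537, with VIM at 12.99 to 13.37, and SPARC, at 5.86 to 6.64, did not. Of 10 luminal genes 3 did, the keratins KRT8 at 12.05 to 12.15, KRT18 at 11.83 to 12.16 and KRT19 at 11.56 to 12.11. ESR1, the estrogen receptor, and CDH1, E-cadherin, lay at 5.04 to 5.18 and 5.01 to 5.35, below the array medians of 6.559 to 6.648. PGR lay below them too, at 4.41 to 4.76. GATA3 (7.30 to 7.52), FOXA1 (6.68 to 7.15) and EPCAM (6.90 to 7.67) lay above them, and ERBB3 ran from 6.57 to 7.12. The annotation names GHSROS for 0 probe sets, so the transfected RNA gave no check of the labels.

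HIF binds DNA at a short core, ACGTG or GCGTG, and the promoters of 6 members are shown to set the widely varying genes beside the steady ones. They are the 3 members with the widest and the 3 with the narrowest range over the 6 arrays among the 21 members that have a single annotated start in the RefSeq promoter table of build GRCh38.p14 (32 of the 36 are in that table). Each is the 250 bases before the start, 5′ to 3′ on the gene's strand, in lower case. Capitals mark ACGTG and GCGTG on either strand, where a match on the other strand reads CACGT or CACGC, and CACGTG counts once on each strand. The first 3, from genes that varied, are EPAS1 (chr2:46297157-46297406, plus strand), ANGPTL4 (chr19:8363905-8364154, plus strand) and ALDOC (chr17:28576896-28577145, minus strand).
EPAS1: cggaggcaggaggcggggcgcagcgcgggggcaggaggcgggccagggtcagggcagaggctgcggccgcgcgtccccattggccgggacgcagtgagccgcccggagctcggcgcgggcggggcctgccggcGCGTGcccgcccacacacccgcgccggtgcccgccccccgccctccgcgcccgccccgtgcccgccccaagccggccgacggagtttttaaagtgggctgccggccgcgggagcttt
ANGPTL4: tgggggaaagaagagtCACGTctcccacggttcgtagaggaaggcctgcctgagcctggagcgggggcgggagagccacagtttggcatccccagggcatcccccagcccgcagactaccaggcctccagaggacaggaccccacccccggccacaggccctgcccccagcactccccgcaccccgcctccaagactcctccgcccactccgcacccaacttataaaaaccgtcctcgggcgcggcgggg
ALDOC: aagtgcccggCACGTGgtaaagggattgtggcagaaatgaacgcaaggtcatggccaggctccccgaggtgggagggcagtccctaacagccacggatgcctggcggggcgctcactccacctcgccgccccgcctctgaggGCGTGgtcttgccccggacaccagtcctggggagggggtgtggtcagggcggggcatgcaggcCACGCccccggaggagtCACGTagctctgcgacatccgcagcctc
The steady genes are ENO1 (chr1:8878687-8878936, minus strand), PGK1 (chrX:78103998-78104247, plus strand) and PKM (chr15:72231191-72231440, minus strand).
ENO1: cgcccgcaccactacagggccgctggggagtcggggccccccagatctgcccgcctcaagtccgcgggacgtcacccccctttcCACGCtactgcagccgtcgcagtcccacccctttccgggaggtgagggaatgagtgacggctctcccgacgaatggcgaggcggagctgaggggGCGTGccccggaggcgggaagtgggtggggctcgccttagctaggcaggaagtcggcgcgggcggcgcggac
PGK1: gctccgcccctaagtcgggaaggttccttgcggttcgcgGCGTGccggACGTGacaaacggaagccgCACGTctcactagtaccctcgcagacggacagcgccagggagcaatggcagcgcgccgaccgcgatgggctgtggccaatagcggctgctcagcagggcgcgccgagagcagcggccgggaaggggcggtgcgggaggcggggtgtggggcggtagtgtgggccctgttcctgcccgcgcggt
PKM: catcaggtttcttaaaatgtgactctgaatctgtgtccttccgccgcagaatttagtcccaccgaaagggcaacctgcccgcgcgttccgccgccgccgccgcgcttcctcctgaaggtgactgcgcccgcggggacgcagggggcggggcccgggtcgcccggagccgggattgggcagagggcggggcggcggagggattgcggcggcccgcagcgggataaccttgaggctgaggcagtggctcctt

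The core was present in promoters of both kinds. EPAS1 had 1 match, GCGTG beginning 117 bases upstream of the start, ANGPTL4 had 1 at 234 bases and ALDOC had 5, the farthest a CACGTG at 240 bases and the nearest at 28 bases. Among the steady genes PGK1 had 3 matches, at 211, 202 and 183 bases upstream, ENO1 had 2 and PKM had 0. Of the 21 members with a single start, 17 (81.0%) held at least 1 match, beside 42.2% of the 22114 windows of genes with 1 start in the table. Those windows were not limited to genes measured here or matched for base composition, and the difference in share was not tested. By role, the core was found in 7 of 8 windows of HIF-induced genes and in 7 of 8 windows of glycolytic enzymes. It was found in 3 of the 3 windows of members whose range reached 1 and in 14 of the 18 (77.8%) with a smaller range. These letters are a description of the windows, and known HIF sites can lie outside them.

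Of the regulators, EPAS1 varied widely between cultures and HIF1A hardly did. EPAS1 was at 9.10, 9.19 and 10.50 on GHSROS arrays 1, 2 and 3, against 10.35, 9.31 and 8.70 on empty-vector arrays 1, 2 and 3. It was thus high on 1 array of each group and lowest on empty-vector array 3, a range of 1.79 or 3.46-fold, the widest of the 36 genes, and the groups overlapped. Its group means were 9.59 ± 0.78 with GHSROS and 9.45 ± 0.83 with the empty vector (SD, n = 3 each), a log2 fold change of 0.14 (SE 0.51) with a 95% interval of -1.06 to 1.34. HIF1A stood at 12.48, 12.45 and 12.57 on GHSROS arrays 1, 2 and 3, against 12.56, 12.48 and 12.40 on empty-vector arrays 1, 2 and 3. Those values span 0.17, and although the 2 highest also fell on GHSROS array 3 and empty-vector array 1, the log2 fold change of 0.021 (SE 0.09) had an interval of -0.19 to 0.23. HIF-1 alpha is controlled mainly through the stability of its protein, which these arrays do not measure.

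The prolyl hydroxylase gene EGLN1 was as steady, between 9.91 and 10.07, and its log2 fold change was 0.0011 (SE 0.09). EGLN3, which HIF itself induces in many cells, was read at 5.997, 5.78 and 5.97 with GHSROS, against 5.98, 5.63 and 5.81 with the empty vector. All 6 values lay below the array medians, where signal is hard to part from background, and its difference of 0.11 (SE 0.12) was not called.

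Among the 13 HIF-induced genes measured, 8 had the higher mean with GHSROS and 5 the lower, with a median log2 fold change of 0.053. ANGPTL4 and VEGFA varied most. VEGFA, the main growth factor for blood vessels, was at 10.41, 10.60 and 11.38 on GHSROS arrays 1, 2 and 3, against 11.13, 10.71 and 9.65 on empty-vector arrays 1, 2 and 3. Empty-vector array 3 lay alone at the bottom and GHSROS array 3 at the top, 3.33-fold apart. The log2 fold change was 0.31 (SE 0.41), interval -0.67 to 1.28, the largest positive one of the 36. Without empty-vector array 3 it was -0.12, the only single-array omission that turned its sign.

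ANGPTL4, a secreted inhibitor of lipoprotein lipase, gave 7.42, 6.42 and 8.05 with GHSROS, against 8.22, 6.73 and 7.80 with the empty vector. It was low on GHSROS array 2 and empty-vector array 2 and high on GHSROS array 3 and empty-vector arrays 1 and 3, an order unlike that of VEGFA. Its log2 fold change of -0.28 (SE 0.50) was the most negative of the 36, and became 0.15 when GHSROS array 2 was left out and 0.035 when empty-vector array 1 was. ADM, which encodes the vasodilator peptide adrenomedullin, ran differently again, at 11.09, 10.67 and 10.89 with GHSROS, against 10.53, 10.38 and 11.18 with the empty vector. Here empty-vector array 3 was the highest, empty-vector arrays 1 and 2 were the lowest, and the log2 fold change was 0.19 (SE 0.22). With single arrays left out it ran from 0.028 without empty-vector array 2 to 0.43 without empty-vector array 3.

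NDRG1, a stress-responsive gene tied to growth arrest and metastasis suppression, followed VEGFA, with 10.45, 10.73 and 11.37 with GHSROS, against 11.22, 10.81 and 10.21 with the empty vector. MXI1, an antagonist of MYC, was at 8.21, 8.24 and 8.82 with GHSROS, against 8.99, 8.48 and 8.20 with the empty vector. KDM3A, a histone H3 lysine 9 demethylase, was at 8.51, 8.60 and 9.14 with GHSROS, against 9.09, 8.60 and 8.40 with the empty vector. In all 3 genes GHSROS array 3 and empty-vector array 1 held the 2 highest values and empty-vector array 3 the lowest. The log2 fold changes were 0.10 (SE 0.31), -0.13 (SE 0.24) and 0.053 (SE 0.23), each smaller than its SE.

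The collagen-modifying enzymes were nearer to each other. P4HA1 and P4HA2, the alpha subunits of collagen prolyl 4-hydroxylase, ranged from 9.21 to 9.78 and from 8.99 to 9.83, again lowest on empty-vector array 3, and their log2 fold changes were 0.071 (SE 0.17) and 0.15 (SE 0.22). PLOD2, a collagen lysyl hydroxylase, ranged only from 11.15 to 11.52, with a log2 fold change of 0.0066 (SE 0.14). For the mitophagy receptors BNIP3 and BNIP3L the ranges were 0.33 and 0.30 and the fold changes -0.016 (SE 0.12) and -0.027 (SE 0.12). Both had their 2 highest values on GHSROS array 3 and empty-vector array 1, as the wider genes did.

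CA12, a membrane carbonic anhydrase that takes part in pH control, had 8.93, 9.07 and 9.20 with GHSROS, against 9.51, 9.51 and 8.81 with the empty vector. Empty-vector arrays 1 and 2 were highest, at 9.51 each, and empty-vector array 3 lowest, so the groups overlapped at a log2 fold change of -0.21 (SE 0.20). With single arrays left out it ran from -0.45 without empty-vector array 3 to -0.092 without empty-vector array 1, and no such fit called it after adjustment. ANKRD37, an ankyrin repeat gene known as a HIF-1 target, was the only 1 of the 36 genes whose groups did not overlap. It was at 7.63, 7.65 and 7.68 with GHSROS, against 7.52, 7.54 and 7.30 with the empty vector, all 3 GHSROS arrays above all 3 empty-vector arrays. Over all genes 5.51% had groups that did not overlap, 3.06% with GHSROS above and 2.44% with GHSROS below, so 1 of 36 is no more than the background. Its log2 fold change was 0.20 (SE 0.10), interval -0.030 to 0.42, with an adjusted p of 1 in limma.

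**Figure D2:**
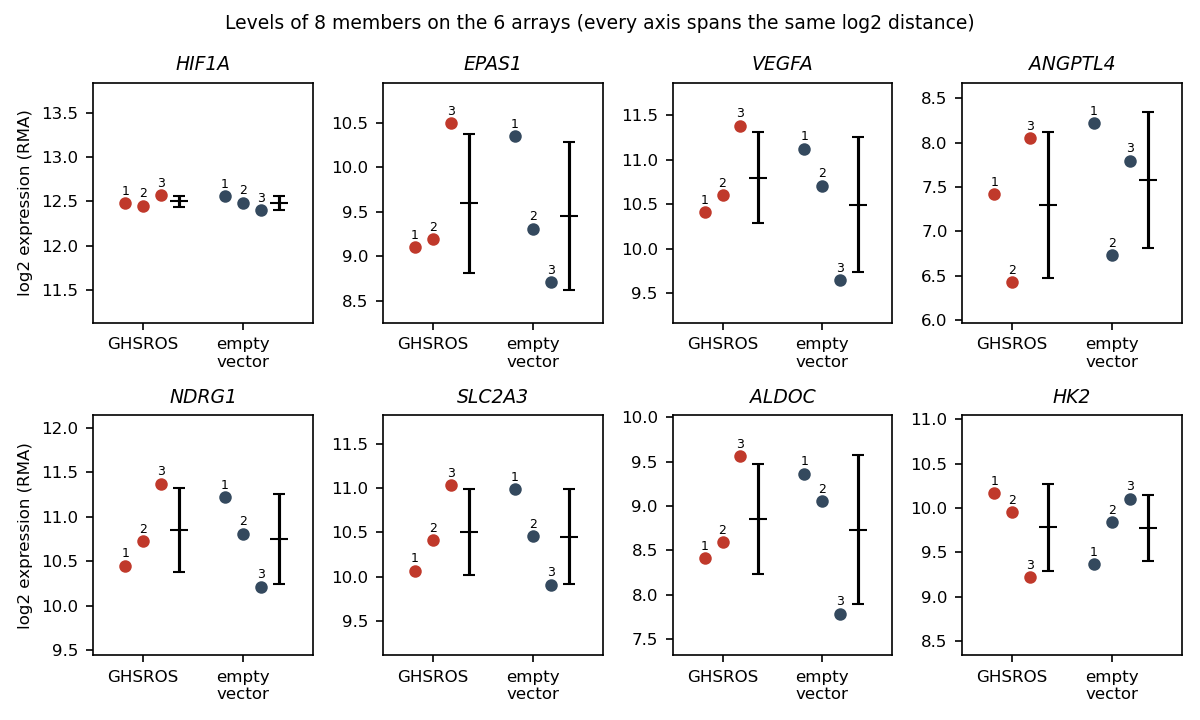
Points are single arrays, labelled with the replicate number, for 8 genes, with GHSROS left of the empty vector in each panel; bars show the mean and SD of 3. The vertical axes give log2 expression and all span the same distance. HIF1A stays near 12.5, EPAS1, VEGFA, NDRG1, SLC2A3 and ALDOC are highest on GHSROS array 3, and HK2 is lowest there at 9.23.

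The 2 measured glucose transporters behaved unlike each other. SLC2A1 (GLUT1), the basal transporter, stood between 12.43 and 12.71, highest on GHSROS array 1, with a log2 fold change of 0.089 (SE 0.10). SLC2A3 (GLUT3), a high-affinity transporter, was at 10.07, 10.41 and 11.03 with GHSROS, against 10.98, 10.46 and 9.91 with the empty vector. Its order over the arrays was that of EPAS1 and NDRG1, high on GHSROS array 3 and empty-vector array 1 and low on empty-vector array 3. The log2 fold change of SLC2A3 was 0.052 (SE 0.33), interval -0.72 to 0.83.

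Many genes of glycolytic enzymes have processed pseudogenes that a probe set could also read, so the values may not be of the named gene alone. Of 14 measured, 8 had the higher mean with GHSROS and 6 the lower, and the median log2 fold change was 0.0088. With each array centred on its median, 6 were higher and 8 lower, with a median of -0.0026. That centring left 45.8% of all genes higher. Without it, the fold changes ran from -0.062 for GPI to 0.12 for ALDOC. GAPDH, which oxidises glyceraldehyde 3-phosphate, was at 14.13, 13.99 and 13.97 with GHSROS, against 13.96, 14.05 and 14.08 with the empty vector, a log2 fold change of -0.00017 (SE 0.09). PGK1, the first ATP-forming step, ranged over 0.12 with a log2 fold change of 0.058 (SE 0.08), interval -0.13 to 0.24. ENO1 (enolase), PKM (pyruvate kinase) and LDHA (lactate dehydrogenase A) ranged over 0.12, 0.15 and 0.19, and their log2 fold changes were 0.019 (SE 0.08), 0.041 (SE 0.08) and 0.019 (SE 0.09).

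Of the earlier steps, PFKP, a phosphofructokinase, had the narrowest range of all 36 genes at 0.11 and a log2 fold change of -0.036 (SE 0.08). TPI1 (triose phosphate isomerase) and ALDOA (aldolase A) ranged over 0.20 and 0.33, with log2 fold changes of -0.020 (SE 0.09) and -0.050 (SE 0.11). HK1, the constitutive hexokinase, ranged over 0.28 and differed by 0.0071 (SE 0.11). The inducible hexokinase gene HK2 varied by 0.94, at 10.17, 9.96 and 9.23 with GHSROS, against 9.37, 9.84 and 10.11 with the empty vector. Its 2 lowest values fell on GHSROS array 3 and empty-vector array 1, the arrays on which EPAS1 and VEGFA were highest, and its log2 fold change was 0.010 (SE 0.28). GPI, which interconverts glucose 6-phosphate and fructose 6-phosphate, was also lowest on those arrays, at 12.49, 12.33 and 12.18 with GHSROS, against 12.18, 12.39 and 12.61 with the empty vector, and differed by -0.062 (SE 0.14).

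Some isoenzyme genes parted from their partners. ALDOC (aldolase C), the neuronal form, was at 8.41, 8.59 and 9.56 with GHSROS, against 9.37, 9.05 and 7.79 with the empty vector. That is a 3.42-fold span with empty-vector array 3 lowest, where ALDOA was highest on that array, and the groups overlapped at a log2 fold change of 0.12 (SE 0.46). ENO2, the neuronal enolase, ranged from 10.33 to 10.83 and PFKL, the liver-type phosphofructokinase, from 9.47 to 9.95. Both had their 2 highest values on GHSROS array 3 and empty-vector array 1, which their partners ENO1 and PFKP did not. With ALDOC that was 3 of 14 enzymes (21.4%), near the 18.9% of all genes. The log2 fold changes were 0.10 (SE 0.14) for ENO2 and -0.049 (SE 0.17) for PFKL.

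Of the genes that control glycolysis, PFKFB3 and PFKFB4 make the fructose bisphosphate isomer that activates phosphofructokinase, and PDK1 inhibits pyruvate dehydrogenase. PFKFB3 ranged over 0.21 with a log2 fold change of -0.049 (SE 0.09). PFKFB4 was at 7.31, 7.32 and 7.89 with GHSROS, against 7.64, 7.51 and 7.08 with the empty vector, highest on GHSROS array 3 and empty-vector array 1 and lowest on empty-vector array 3, with a log2 fold change of 0.10 (SE 0.21). PDK1 lay between 9.79 and 10.01, at 0.071 (SE 0.09).

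**Figure D3:**
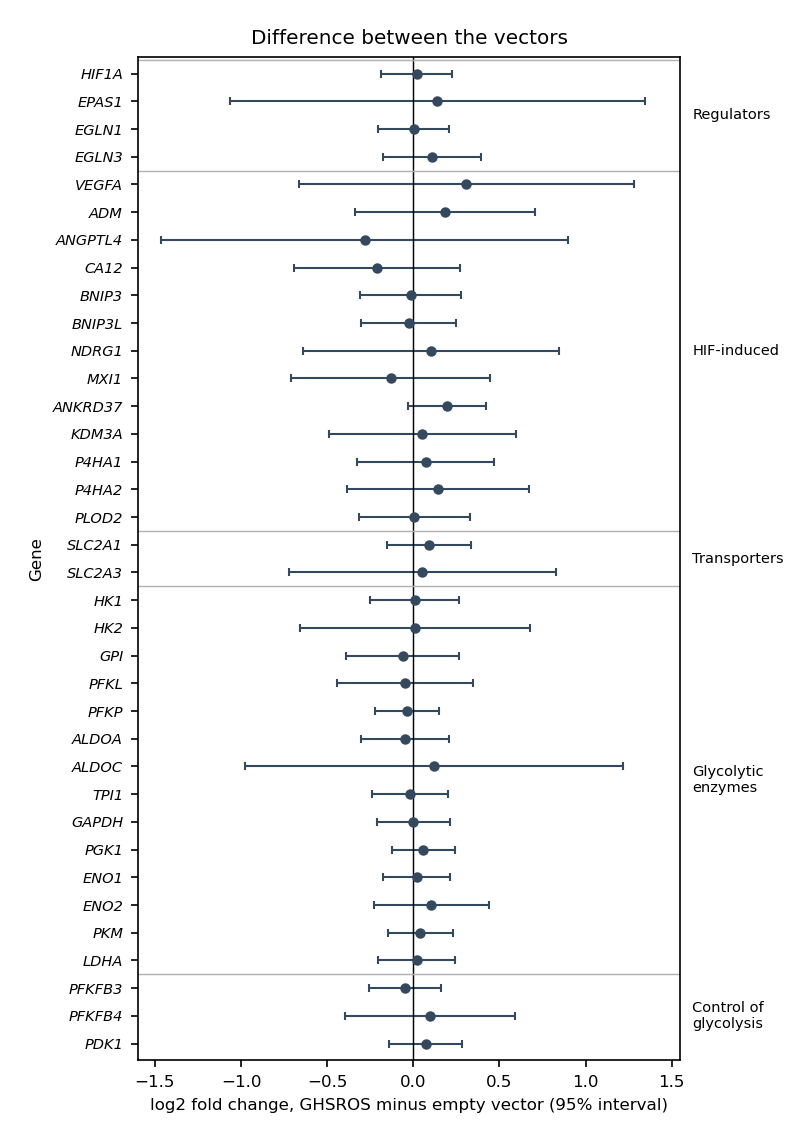
Points give the log2 fold change of each of the 36 genes, GHSROS minus empty vector, and bars its 95% interval from limma, grouped by role. Every interval includes 0, and the bars are widest for EPAS1, ANGPTL4, ALDOC and VEGFA.

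The median range over the 6 arrays was 0.74 for the 13 HIF-induced genes and 0.24 for the 14 enzymes, beside 0.37 over all 18377 genes. The members of each group differed among themselves, from 0.30 for BNIP3L to 1.79 for ANGPTL4 and from 0.11 for PFKP to 1.77 for ALDOC. Wide ranges were not particular to the HIF-induced genes. The median range was 1.17 for the 20 mitosis genes and 1.07 for the 20 ATF4 targets, and 14 and 11 of them reached 1. It was 0.67 for 11 pentose phosphate and glucose-responsive genes and 0.46 for 32 further hypoxia-induced genes. For further regulators, further glycolysis and lactate genes and pyruvate entry it was 0.38, 0.38 and 0.49. A range of at least 1 was reached by 3 of 13 HIF-induced genes (VEGFA, ANGPTL4 and NDRG1), 1 of 14 enzymes (ALDOC), and by EPAS1 and SLC2A3, in all 6 of 36, where 5.57% of all genes reached it, and 7.88% of genes whose mean was at least the median of all genes. HK2 at 0.94 lay just below that limit and SLC2A3 at 1.12 just above it. Without GHSROS array 3 and empty-vector array 1, a choice made with these values in view, VEGFA, ANGPTL4 and ALDOC still ranged over 1.06, 1.37 and 1.27 on the other 4 arrays. EPAS1, NDRG1 and SLC2A3 then had ranges of 0.61, 0.60 and 0.55, and 0.936% of all genes reached 1. On those 4 arrays the median range was 0.50 for the HIF-induced genes, 0.13 for the enzymes and 0.26 for all genes. The median log2 fold change there was 0.055 for the HIF-induced genes and 0.022 for the enzymes, and limma gave 0 of 36 an unadjusted p under 0.05. Bright probe sets can be compressed on arrays, and 6 of the 14 enzymes had a mean level of 12 or more, as had 439 genes in all. The median range was 0.16 for those 6 enzymes and 0.29 for the 439 genes. Of the 13 HIF-induced genes 1 was that bright, with a range of 0.30. The dimmer enzymes ranged over 0.12 (PGK1), 0.20 (TPI1), 0.28 (HK1), 0.33 (ALDOA), 0.48 (PFKL), 0.50 (ENO2), 0.94 (HK2) and 1.77 (ALDOC). PFKL, ENO2, HK2 and ALDOC thus lay above the 0.37 of all genes. The part of signal compression in these ranges was not tested.

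**Figure D4:**
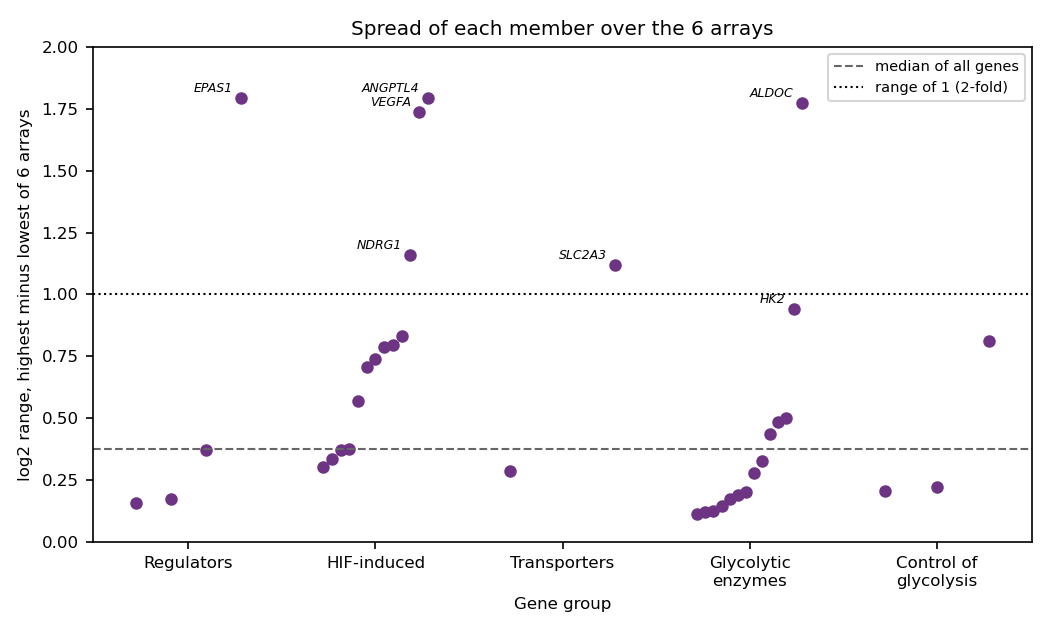
Each point is 1 of the 36 genes, placed by role, and its height is the highest minus the lowest of its 6 log2 values. The dashed line is the median of all genes, 0.37, and the dotted line a range of 1; EPAS1, ANGPTL4, VEGFA, ALDOC, NDRG1 and SLC2A3 lie above it and most enzymes below 0.37.

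GHSROS array 3 and empty-vector array 1 held the 2 highest values in 18.9% of all genes and 24.7% of the brighter ones, those at or above the median level. These arrays held them in 9 of 13 HIF-induced genes and in 3 of 14 enzymes (ALDOC, ENO2 and PFKL), the enzymes' 21.4% lying between those shares. They held the 2 lowest values in 0 of 13 HIF-induced genes and in 5 of 14 enzymes (HK1, HK2, GPI, GAPDH and LDHA), against 20.3% of all genes and 32.4% of the brighter ones, so the enzymes' share is near that of the brighter genes. Empty-vector array 3 was the lowest in 9 of 13 HIF-induced genes and 2 of 14 enzymes, and in 14% of all genes. Averaged as differences from each gene's own mean, the HIF-induced genes stood at -0.13, -0.12 and 0.30 on GHSROS arrays 1, 2 and 3, against 0.26, -0.052 and -0.25 on empty-vector arrays 1, 2 and 3. The enzymes stood at 0.036, -0.033 and 0.014, on those GHSROS arrays, against -0.0053, 0.0086 and -0.021 on the empty-vector arrays. The HIF-induced mean minus the enzyme mean was 0.0096 ± 0.24 with GHSROS and -0.0096 ± 0.25 with the empty vector (SD, n = 3 each). These means are equal and opposite by construction, since each gene's 6-array mean was subtracted, so they hold a single difference of 0.019. That gap was far smaller than the spread within either group. The HIF-induced means followed the ATF4 list in sign on all 6 arrays and were opposite in sign to the mitosis list on all 6. The part of what those lists measure in this pattern was not tested.

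**Figure D5:**
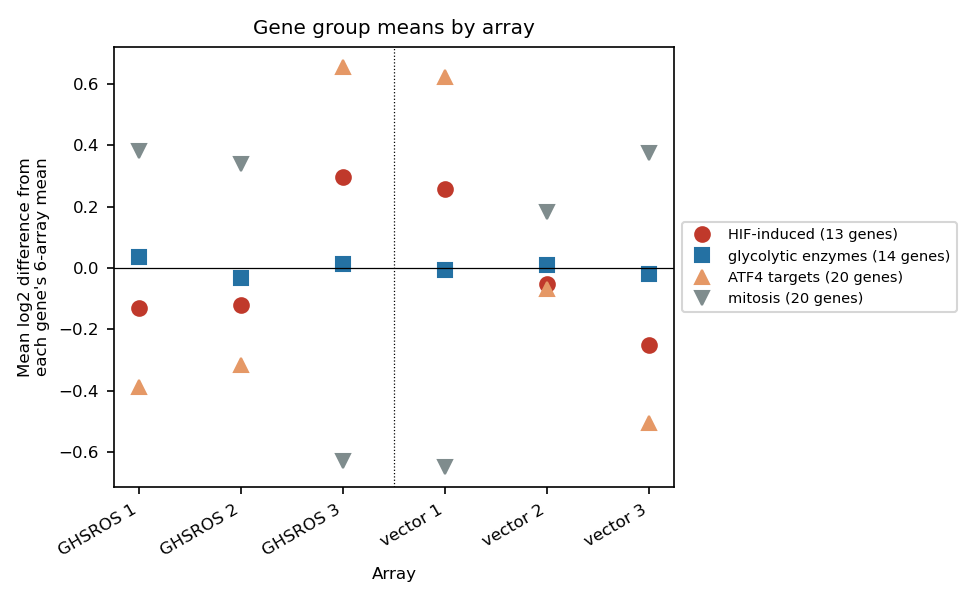
Points give the mean log2 difference from each gene's 6-array mean, per array, for 13 HIF-induced genes, 14 glycolytic enzymes, 20 ATF4 targets and 20 mitosis genes, with the GHSROS arrays on the left. The enzymes stay within 0.036 of 0; HIF-induced genes and ATF4 targets are highest on GHSROS array 3 and empty-vector array 1, where mitosis genes are lowest.

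The other genes of the pathway were taken from lists. Over all genes 1.77% had an unadjusted p under 0.05 in limma, the share to set beside the unadjusted counts of each list. Of 14 further HIF pathway regulators measured, 6 were higher and 8 lower with GHSROS, 0 passed an adjusted p of 0.05 in limma (0 at an unadjusted p under 0.05) and the median log2 fold change was -0.030. VHL, the ubiquitin ligase subunit that recognises hydroxylated HIF, was at 9.58, 9.74 and 10.20 with GHSROS, against 10.12, 9.82 and 9.56 with the empty vector. Its 2 highest values were on GHSROS array 3 and empty-vector array 1. ARNT, the beta subunit, and HIF1AN, the asparagine hydroxylase that blocks coactivator binding, differed by 0.054 (SE 0.11) and -0.12 (SE 0.12) on the log2 scale. The extremes of the list were CITED2, which competes with HIF for a coactivator, at -0.17 (SE 0.15), and ARNT2, another beta subunit, at 0.14 (SE 0.24).

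Of 32 further hypoxia-induced genes measured, 16 were higher and 16 lower, 0 passed (1 at an unadjusted p under 0.05), and the median was -0.0090. BHLHE40, a transcriptional repressor, had the largest positive difference at 0.31 (SE 0.45), with 9.86, 10.56 and 11.08 with GHSROS, against 10.64, 10.67 and 9.25 with the empty vector. PPP1R3C, a glycogen-targeting phosphatase subunit, had the most negative, -0.46 (SE 0.14), at 6.10, 5.76 and 5.98 with GHSROS, against 6.21, 6.42 and 6.60 with the empty vector. All 3 GHSROS values of PPP1R3C lay below all 3 empty-vector values. Its unadjusted p in limma was 0.0116 with an adjusted p of 1, and all 6 values lay below the upper array median of 6.648. HMOX1 also lay below in this way and PGM1 above. That made 2 of 32 below and 1 above, where 2.44% and 3.06% of all genes were so placed. In this list GHSROS array 3 and empty-vector array 1 held the 2 highest values in 11 of 32 genes (34.4%). The share was 18.9% of all genes, 24.7% of those at or above the median level and 69.2% of the 13 HIF-induced members. The widest range was that of DDIT4, an inhibitor of mTOR signalling named here after its values were seen, at 2.51 with 9.64, 9.88 and 11.44 with GHSROS, against 11.18, 10.63 and 8.93 with the empty vector. DDIT4, VLDLR and STC2 also belong to the ATF4 list.

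Further glycolysis and lactate genes, 18 measured, divided into 8 higher and 10 lower with 0 passing (0 unadjusted). LDHB, the other lactate dehydrogenase subunit, had a log2 fold change of -0.016 (SE 0.11), and BSG, which brings lactate transporters to the membrane, one of -0.0064 (SE 0.12). The extremes were PFKFB1, a dim isoform below the array medians, at -0.18 (SE 0.12) and BPGM, which makes bisphosphoglycerate, at 0.16 (SE 0.15). Among 11 genes of pyruvate entry into mitochondria, 7 were higher and 4 lower with 0 passing (1 unadjusted). PDK4 ranged from 7.68 to 9.68, high on GHSROS array 3 and empty-vector array 1, with a log2 fold change of -0.0062 (SE 0.58). PDK3, a pyruvate dehydrogenase kinase, had the largest difference, 0.55 (SE 0.19), at 8.18, 8.01 and 8.60 with GHSROS, against 7.84, 7.88 and 7.42 with the empty vector. The groups did not overlap, yet the adjusted p in limma was 1 (unadjusted p = 0.0221). PDK3 was the only 1 of the 11 genes whose groups did not overlap, where 5.51% of all genes had no overlap. PDK2 was the most negative of that list at -0.12 (SE 0.23).

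In the list of pentose phosphate and glucose-responsive genes, 3 of 11 were higher and 8 lower, with 0 passing (1 unadjusted) and a median of -0.024. ARRDC4, an arrestin-domain gene switched on by MondoA when glucose phosphates build up, had the most negative difference, -0.53 (SE 0.15). Its levels were 7.68, 7.79 and 8.11 with GHSROS, against 8.58, 8.39 and 8.19 with the empty vector. The 3 GHSROS arrays lay below the 3 empty-vector arrays, as they did for TALDO1, so in 2 of 11 genes. Of all genes 2.44% were so placed. For ARRDC4 the unadjusted p in limma was 0.0096 and the adjusted p was 1. TXNIP, its close relative and likewise a MondoA target, did not share that order, at 12.57, 12.92 and 13.57 with GHSROS, against 13.49, 13.13 and 12.32 with the empty vector and a log2 fold change of 0.038 (SE 0.35). RPIA, of the pentose phosphate pathway, was the most positive at 0.058 (SE 0.23).

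For the lists that describe the state and identity of the cells, 0 genes passed in limma either. In these lists 2 genes had an unadjusted p under 0.05, FOXA1 and KRT19 of the 10 luminal genes. Over all genes the share was 1.77%. The extreme differences were -0.015 for KIF11 and 0.26 for NUSAP1 among mitosis genes, and -0.28 for CHAC1 and 0.10 for VLDLR among ATF4 targets. They were -0.17 for VIM and 0.14 for SPARC among mesenchymal genes, and -0.28 for KRT19 and 0.35 for FOXA1 among luminal genes. Among markers of cells that a culture of this line should lack, 1 of 7 fibroblast, 1 of 6 leukocyte and 1 of 6 endothelial genes had a mean at or above the median gene level. They were COL1A1 at 7.62 to 7.85, CD68, a lysosomal protein used as a macrophage marker, at 12.06 to 12.66, and KDR. The list means ran from 5.46 to 5.67 with GHSROS and from 5.49 to 5.51 with the empty vector for 7 fibroblast genes (DCN -0.14, LUM 0.16). For 6 leukocyte genes the means were 5.60 to 5.84 with GHSROS and 5.75 to 5.87 with the empty vector (CD68 -0.24, PTPRC 0.073), with PTPRC at 3.55 to 3.68. For 6 endothelial genes they were 6.33 to 6.75 with GHSROS and 6.18 to 6.58 with the empty vector (TEK -0.033, KDR 0.41), and KDR, a VEGF receptor, was at 7.77, 7.68 and 9.10 with GHSROS, against 8.81, 7.30 and 7.20 with the empty vector. KDR was high on GHSROS array 3 and empty-vector array 1, as were EPAS1 and VEGFA, and was the only 1 of the 6 endothelial genes with that pattern and the only 1 at or above the median gene level.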

How the data were processed

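Total RNA of 6 cultures was hybridised to 1 array each, and titles give group and replicate number. The authors summarised probe sets as log2 expression using RMA, per the submitters' processing notes, which as given here name no version or steps. RMA as usually run quantile normalizes arrays, which removes a shift of most genes together. Of 28869 probe sets, 19310 have 1 gene symbol in the platform annotation, 1752 several and 7807 are not listed; the brightest single-symbol probe set was kept per gene, leaving 18377 genes, with no filter. 0 columns were left out. Array medians were 6.559 to 6.648. Array values carry no read depth. limma 3.58.1 in R 4.3.3 compared GHSROS with the empty vector, with group as the only term, and was tested on simulated data. The members, gene lists, tests and alternatives were chosen with earlier results of these data known, so no test was made on a list. All measured members are named, and of each other list the genes with the most positive and most negative difference. VHL, ARNT, HIF1AN, LDHB, BSG, PDK4 and TXNIP are named whatever their values. KRT8, KRT18, ESR1, CDH1, PGR, GATA3, EPCAM, ERBB3, COL1A1 and DDIT4 were named outside this rule, after their values were seen. EGLN2 and SLC16A1, also on that list of names, were not analysed here. Alternatives were quantile normalization, median centring, a filter at the median level, averaging each gene's probe sets, all probe sets, an intensity trend with robust prior, array weights, the replicate number as a block and each array left out. Promoters are RefSeq's, build GRCh38.p14.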

Additional observations from a re-analysis of the deposited data

How the results depend on the processing

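With 3 arrays a group, depth plays no part and the precision is that of 3 cultures; dim genes such as EGLN3 are limited by signal near background. Under every alternative run, 0 genes passed an adjusted p of 0.05 and so 0 of the 36. At an unadjusted p under 0.05 limma gave 325 genes, 877 with array weights, 76 among genes at or above the median level, 565 of all probe sets, and 191 to 480 with 1 array left out, 191 without GHSROS array 1. Of the 36 genes 0 reached it, 1 after quantile normalization (ANKRD37), 1 with array weights (CA12), and 0 to 2 with 1 array left out, the 2 being ADM and CA12 without empty-vector array 3. Replicate numbers shared by the groups did not pair the arrays throughout. The r of deviations from the group means was -0.714, 0.504 and -0.669 for numbers 1, 2 and 3. It was 0.831 for GHSROS array 3 with empty-vector array 1 and 0.738 for GHSROS array 1 with empty-vector array 3. The labels state no pairing, and a block that follows these likenesses was not fitted. In limma with the replicate number as block, 223 genes had an unadjusted p under 0.05 and 0 passed. By construction the intensity trend, the block and the mean of probe sets leave every member's log2 fold change as it was. Signs of small differences did turn, and the cause was not tested. With array weights the log2 fold changes were -0.0015 for HIF1A, -0.10 for EPAS1, -0.011 for VEGFA, 0.019 for BNIP3, -0.12 for NDRG1, -0.037 for KDM3A, -0.067 for P4HA1, -0.072 for P4HA2, -0.077 for PLOD2, -0.16 for SLC2A3, 0.0075 for GPI, 0.00050 for ALDOA, -0.28 for ALDOC, 0.059 for TPI1, 0.023 for GAPDH and -0.078 for PFKFB4. With each array centred on its median they were -0.010 for EGLN1, -0.0048 for PLOD2, -0.0043 for HK1 and -0.0010 for HK2, and quantile normalization gave 0.0051 for BNIP3L. With GHSROS arrays 1 and 2 against empty-vector arrays 2 and 3, an alternative added after seeing the data, HK1 was at -0.025 and TPI1 at 0.021. Leaving out 1 array at a time, the fold changes ran over -0.021 to 0.060 for HIF1A, -0.31 to 0.59 for EPAS1, -0.051 to 0.028 for EGLN1, 0.019 to 0.20 for EGLN3, -0.12 to 0.62 for VEGFA, 0.028 to 0.43 for ADM, -0.71 to 0.15 for ANGPTL4, -0.45 to -0.092 for CA12, -0.10 to 0.055 for BNIP3, -0.11 to 0.023 for BNIP3L, -0.16 to 0.34 for NDRG1, -0.33 to 0.084 for MXI1, 0.12 to 0.24 for ANKRD37, -0.14 to 0.25 for KDM3A, -0.11 to 0.17 for P4HA1, -0.066 to 0.31 for P4HA2, -0.088 to 0.12 for PLOD2, 0.019 to 0.16 for SLC2A1, -0.22 to 0.32 for SLC2A3, -0.081 to 0.063 for HK1, -0.19 to 0.29 for HK2, -0.17 to 0.047 for GPI, -0.19 to 0.059 for PFKL, -0.066 to -0.011 for PFKP, -0.11 to 0.019 for ALDOA, -0.36 to 0.43 for ALDOC, -0.073 to 0.027 for TPI1, -0.051 to 0.029 for GAPDH, 0.036 to 0.077 for PGK1, -0.014 to 0.044 for ENO1, -0.028 to 0.18 for ENO2, 0.0056 to 0.061 for PKM, -0.027 to 0.075 for LDHA, -0.078 to 0.0050 for PFKFB3, -0.10 to 0.21 for PFKFB4 and 0.025 to 0.12 for PDK1. The median of the enzymes ran from -0.021 without empty-vector array 1 to 0.042 without empty-vector array 3, and that of the genes controlling glycolysis from -0.076 without GHSROS array 3 to 0.12 without empty-vector array 2. The median of the HIF-induced genes ran from -0.11 without empty-vector array 3 to 0.12 without GHSROS array 1, and was -0.067 with array weights.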

Other observations

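PGAM1 (phosphoglycerate mutase) was read by 5 probe sets that the annotation pairs with PGAM4 as well, 2 of them with identical values, and they were kept out of every count above. Probe set 7929624 gave 11.90, 11.73 and 11.43 on GHSROS arrays 1, 2 and 3, against 11.49, 11.70 and 12.01 on empty-vector arrays 1, 2 and 3. All 5 were lowest on GHSROS array 3 and next lowest on empty-vector array 1, as GPI and HK2 were, and their log2 differences between the group means ran from -0.059 to -0.044.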
